A study of Bos taurus with 12 samples.

Results

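The transcripts of MHC antigen processing and presentation were examined in mammary gland (MG) biopsies of 12 early lactation Holstein cows given an intra-mammary endotoxin challenge. The genes were B2M, TAP1, TAP2, TAPBP, PSMB8, PSMB9 and NLRC5 of the class I route, and CIITA, CD74 and BOLA-DRA of the class II route. The accessions of the array's non-control probes were looked up in the bovine RefSeq table to find them, and 8 of the 10 genes were matched, by 23 of 43653 probes. NLRC5 and CIITA, the transcriptional regulators of class I and class II genes, could not be matched by accession and were not analysed here. The matched genes stand beside 12639 genes that could be named in the same way.

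All cows were multiparous and 24 ± 3 days in milk when the diets started. The 6 CONT cows had free access to a lactation diet, and the 6 REST cows received for 4 days the same kind of ration diluted with barley straw, which made up 48% of its dry matter. On day 3 of the diets, 50 µg of LPS, the endotoxin of Gram-negative bacteria, was infused into a healthy rear gland of every cow of both groups. The MG was biopsied 24 h later, and 100 ng of RNA per cow was hybridized to 1 one-color array, so that no unchallenged tissue was measured. Each biopsy is a mixture of cells, in which fewer cells of a type and less RNA per cell cannot be told apart.

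Cells show fragments of their own proteins on MHC class I molecules. Proteasomes that carry the inducible subunits cut the proteins, the TAP transporter moves the peptides into the endoplasmic reticulum, tapasin holds the transporter to empty class I molecules, and β2-microglobulin completes the molecule that reaches the surface. Class II molecules show peptides of engulfed material to helper T cells, and the invariant chain CD74 guards their groove until they meet those peptides. Class I genes are active in nearly all nucleated cells and rise with interferon γ, whereas class II genes are mainly active in dendritic cells, macrophages and B cells. In the gene order of the RefSeq table, PSMB8, TAP1 and PSMB9 follow each other with 0 genes between them, TAP2 lies 2 genes from PSMB8, and BOLA-DRA lies on the same chromosome.

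Signals were expressed as log2 intensity relative to the 75th percentile of the array, hereafter the log2 signal. This percentile was 387 to 1184 intensity units, and 57.6 to 78.2% of the spots were well above background. Milk secretion genes (4 of 5 matched) and luminal epithelium genes (5 of 5) exceeded the background well on all 12 arrays, as the tissue label requires. The arrays lay on 3 slides of 4, which held 3 CONT and 1 REST, 1 CONT and 3 REST, and 2 CONT and 2 REST. No probe of the whole array passed the threshold of 0.05 with limma, either by Westfall-Young (0 of 43653, lowest adjusted p = 0.22) or by Benjamini-Hochberg (lowest adjusted p = 0.777), and 1143 probes had an unadjusted p under 0.05.

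On all 12 arrays, the 23 probes of the 8 genes were well above background, and none was saturated. None of the 8 genes, represented by its brightest probe, passed the test between REST and CONT. The number with an unadjusted limma p under 0.05 was 0 of 8, against 2.64% of all named genes. Over all 23 probes it was also 0 (0 higher and 0 lower), whereas 2.62% of the array's probes had such a p, 1.74% with a higher and 0.875% with a lower mean in REST. The lowest p of the 23 was 0.164, and every adjusted p was 1.0. In none of the 23 probes were the groups apart, whereas the 2 groups did not overlap in 0.128% of the probes of the array. The mean was higher in REST for 5 of 8 genes, compared with 43.5% of the named genes, and for 11 of 23 probes (47.8%), compared with 45.8% of the named probes. The median log2 fold change was 0.07 over the 8 genes and -0.03 over all named genes. Leaving out CONT cow 0015 turned the median of the 8 genes to -0.05.

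**Figure D1:**
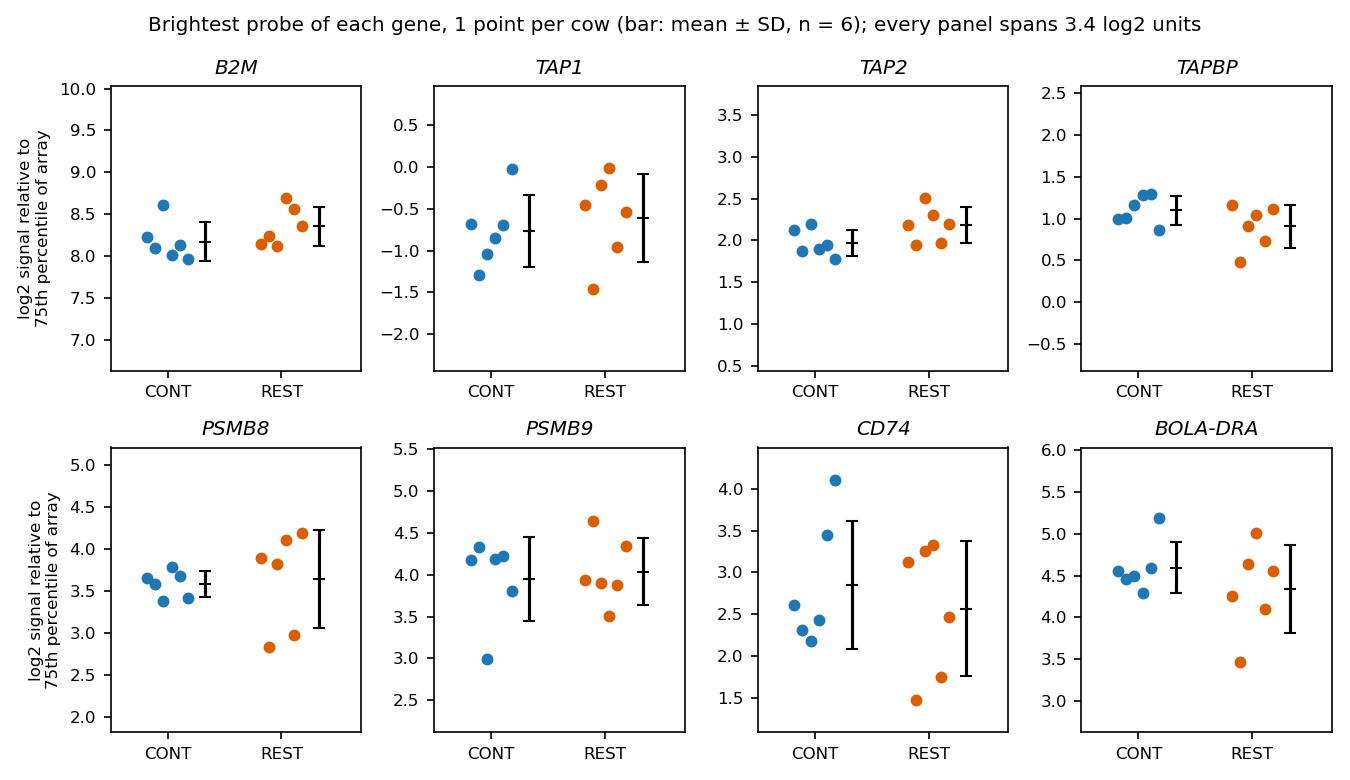
Log2 signal relative to the 75th percentile of the array for the brightest probe of each gene, with 1 point per cow and the mean ± SD of each diet group (n = 6). CONT and REST overlapped in all 8 panels, and CD74 had the widest spread, from 1.48 to 4.10.

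PSMB8 and PSMB9 encode inducible catalytic subunits of the immunoproteasome. The log2 signal of PSMB8 was 3.38 at the lowest, 3.62 at the median and 3.79 at the highest in CONT, and 2.83, 3.86 and 4.19 in REST. The REST cows lay on both sides of the CONT cows, 4 of them above all CONT cows and the other 2, 0049 and 1015, below all of them. The SD was 0.16 in CONT and 0.59 in REST. The means differed by a log2 fold change of 0.06 ± 0.25 (SE, limma p = 0.827, exact permutation p = 0.816), and the 95% interval of the ratio was 0.718 to 1.5. Without REST cow 0049 the difference was 0.22, and it turned to -0.06 without REST cow 1058. The other 2 probes of PSMB8 differed by 0.02 each.

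PSMB9 had a log2 signal of 2.99 at the lowest, 4.18 at the median and 4.33 at the highest in CONT, and of 3.50, 3.92 and 4.64 in REST. CONT cow 0015 lay below the 11 other cows, and REST cow 0049 was the highest of all. The difference was a log2 fold change of 0.08 ± 0.26 (SE, limma p = 0.759, exact permutation p = 0.788). It was -0.11 without CONT cow 0015 and -0.04 without REST cow 0049. The 3 probes of PSMB9 differed in how they ordered the cows. The 2 brighter probes gave nearly the same order (r = 0.99), whereas the dimmest had r = -0.27 and -0.30 with them and a log2 fold change of -0.26 ± 0.36 (SE). In the dimmest probe, REST cow 0049 was the lowest of the 12, at -1.65, followed by REST cow 1015 at -0.79.

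TAP1 and TAP2 encode the chains of the peptide transporter, which is not the tracheal antimicrobial peptide of the same abbreviation. TAP1 had a log2 signal of -1.29 at the lowest, -0.77 at the median and -0.02 at the highest in CONT, and of -1.46, -0.50 and -0.01 in REST. REST cow 0049 was the lowest of the 12, and REST cow 7043 the highest. The log2 fold change was 0.16 ± 0.27 (SE, limma p = 0.571, exact permutation p = 0.578), with a ratio between 0.743 and 1.67 at 95%. The dimmest probe of TAP1 followed the brightest (r = 0.96), and the remaining probe did not (r = -0.38) and had a log2 fold change of -0.18 ± 0.22 (SE). That probe was nearly as bright, with means of -0.69 in CONT and -0.87 in REST, against -0.77 and -0.61 for the brightest.

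TAP2, measured by 1 probe, had the lowest p of the 8 genes. Its log2 signal was 1.78 at the lowest, 1.92 at the median and 2.19 at the highest in CONT, and 1.94, 2.19 and 2.50 in REST. The upper 3 REST cows lay above all CONT cows, and the lower 3 lay within the CONT range. The log2 fold change was 0.21 ± 0.14 (SE, limma p = 0.164, exact permutation p = 0.0671), with a ratio between 0.933 and 1.44 at 95%. TAP2 was also the gene with the smallest spread between cows of a group, 0.19 on the log2 scale, and 87.7% of the 9083 named genes well above background on all arrays had a larger one.

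TAPBP encodes tapasin and was measured by 1 probe. Its log2 signal was 0.86 at the lowest, 1.08 at the median and 1.29 at the highest in CONT, and 0.48, 0.97 and 1.16 in REST. It was the only class I gene of the list with a lower mean in REST, and REST cows 0049 and 1015 lay below all CONT cows. REST differed from CONT by a log2 fold change of -0.19 ± 0.16 (SE, limma p = 0.243, exact permutation p = 0.171), with a ratio between 0.691 and 1.11 at 95%.

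B2M encodes β2-microglobulin, the light chain shared by class I molecules. Its log2 signal was 7.97 at the lowest, 8.12 at the median and 8.61 at the highest in CONT, and 8.12, 8.30 and 8.69 in REST. CONT cow 0015 and REST cows 7043 and 1015 were the highest, and 1 REST cow lay above all CONT cows. Its log2 fold change was 0.18 ± 0.16 (SE, limma p = 0.284, exact permutation p = 0.195), with a ratio between 0.89 and 1.44 at 95%. The other 3 probes of B2M had log2 fold changes of 0.11, 0.09 and -0.07, and the dimmest was the probe with the lower mean in REST. In that order, these 3 had r = 0.49, 0.64 and 0.15 with the brightest probe across cows, and r between 0.70 and 0.94 with each other. Relations of B2M given below are those of its brightest probe unless stated. Against the log2 75th percentile of the arrays, the brightest B2M probe had r = -0.66 across the 12 cows (permutation p = 0.0187, adjusted p = 0.101 over the 8 genes, rho = -0.73, r = -0.64 without CONT cow 0015 and REST cow 7043). This did not pass after adjustment, and since the percentile is subtracted from the signal of every probe, the measures are not independent. The part of array brightness in the B2M values was not tested.

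CD74, the invariant chain of class II, was the most variable of the 8 genes. Its log2 signal was 2.19 at the lowest, 2.52 at the median and 4.10 at the highest in CONT, and 1.48, 2.79 and 3.33 in REST. From REST cow 0049, the lowest, to CONT cow 8027, the highest, the signal spanned 6.17-fold. The within-group SD of 0.78 was exceeded by 8.9% of the 9083 genes, for which the median SD was 0.33. The log2 fold change was -0.28 ± 0.42 (SE, limma p = 0.512, exact permutation p = 0.548), with a ratio between 0.439 and 1.54 at 95%. It shrank to -0.03 without CONT cow 8027 and to -0.06 without REST cow 0049. The 5 probes of CD74 ordered the cows alike (r between 0.96 and 1.00 over 10 pairs) and had log2 fold changes of -0.29 to -0.23.

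BOLA-DRA encodes the α chain of the class II molecule DR. Its log2 signal was 4.30 at the lowest, 4.52 at the median and 5.19 at the highest in CONT, and 3.47, 4.41 and 5.01 in REST. REST cow 0049 was again the lowest and CONT cow 8027 the highest, and 3 REST cows lay below all CONT cows. The log2 fold change was -0.26 ± 0.25 (SE, limma p = 0.321, exact permutation p = 0.344), with a ratio between 0.577 and 1.22 at 95%. Its value was -0.08 without REST cow 0049. All 3 probes had a lower mean in REST, with log2 fold changes of -0.28 to -0.25.

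**Figure D2:**
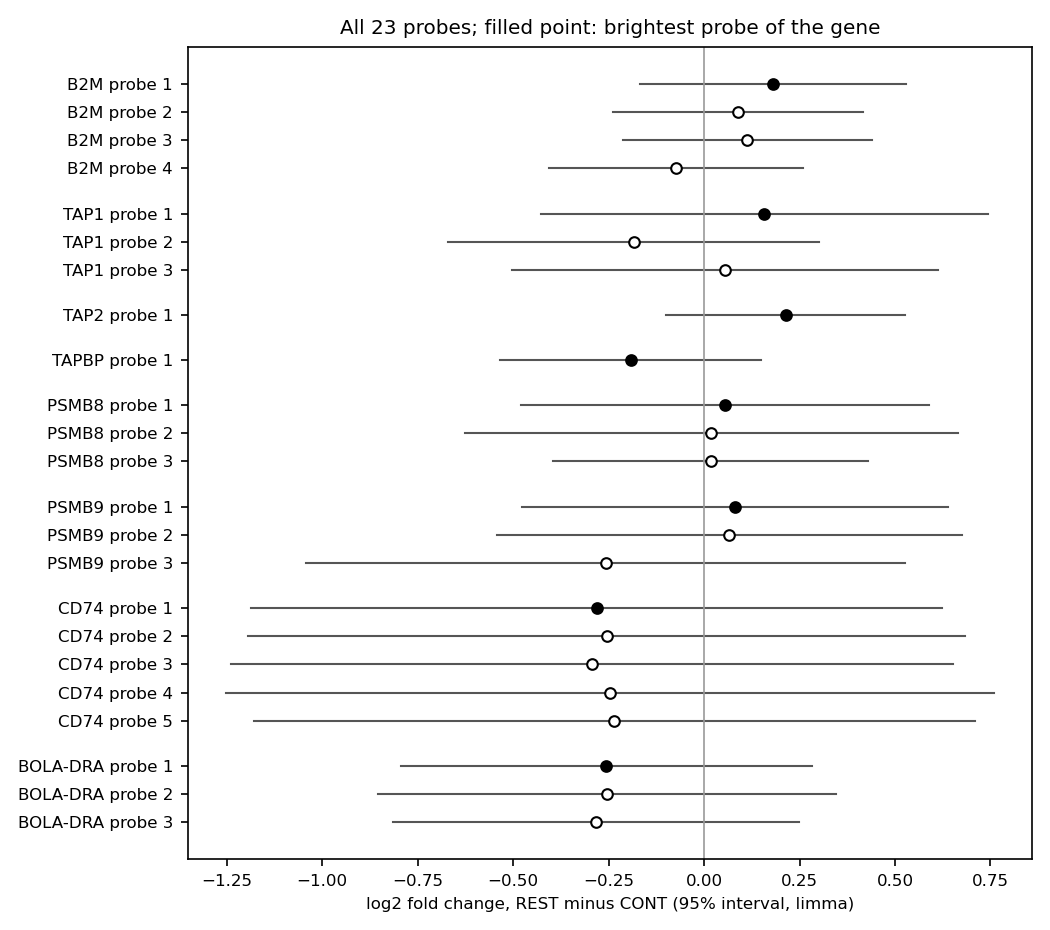
Log2 fold change of REST minus CONT with its 95% interval (limma) for the 23 probes, numbered within a gene from the brightest. All 23 intervals include 0, the 8 probes of CD74 and BOLA-DRA lie below 0, and B2M, TAP1 and PSMB9 have probes on both sides.

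Within slides, which held 1 to 3 cows of each diet and were not tested singly, the differences did not keep 1 direction for most genes. BOLA-DRA was lower in REST on all 3 slides, by log2 differences of -0.19, -0.36 and -0.24. CD74 was higher on slide 1 (0.39) and lower on slides 2 and 3 (-0.43 and -0.28). TAP1, TAP2 and PSMB8 were higher in REST on slides 1 and 3 and lower on slide 2. PSMB9 was lower on slides 1 and 2 (-0.31 and -0.17) and higher on slide 3 (0.72). With slide as a block, the log2 fold changes were 0.17 for TAP1, 0.21 for TAP2 and -0.26 for BOLA-DRA, near those without it. The block moved the others by over 1.5-fold, B2M to 0.08, TAPBP to -0.08, PSMB8 to 0.20, PSMB9 to 0.14 and CD74 to -0.12. The lowest limma p among the 8 genes with the block was 0.22.

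Single cows recurred at the ends of the range. REST cow 0049 was the lowest of the 12 in 5 of the 8 genes (TAP1, TAPBP, PSMB8, CD74 and BOLA-DRA) and the highest in PSMB9. CONT cow 8027 was the highest in CD74 and BOLA-DRA and the lowest in B2M and TAP2. These were also the arrays with the lowest and the highest 75th percentile, 387 for REST cow 0049 and 1184 for CONT cow 8027. REST cow 1015, the next lowest in CD74, PSMB8, TAPBP and BOLA-DRA, had the next lowest percentile, 508.5. Across the 12 cows the percentile was related to CD74 with r = 0.64 (permutation p = 0.0252, adjusted p = 0.101 over the 8 genes, rho = 0.48), and with r = 0.26 without CONT cow 8027 and REST cow 0049. None of the 8 genes passed the adjusted threshold for this relation.

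**Figure D3:**
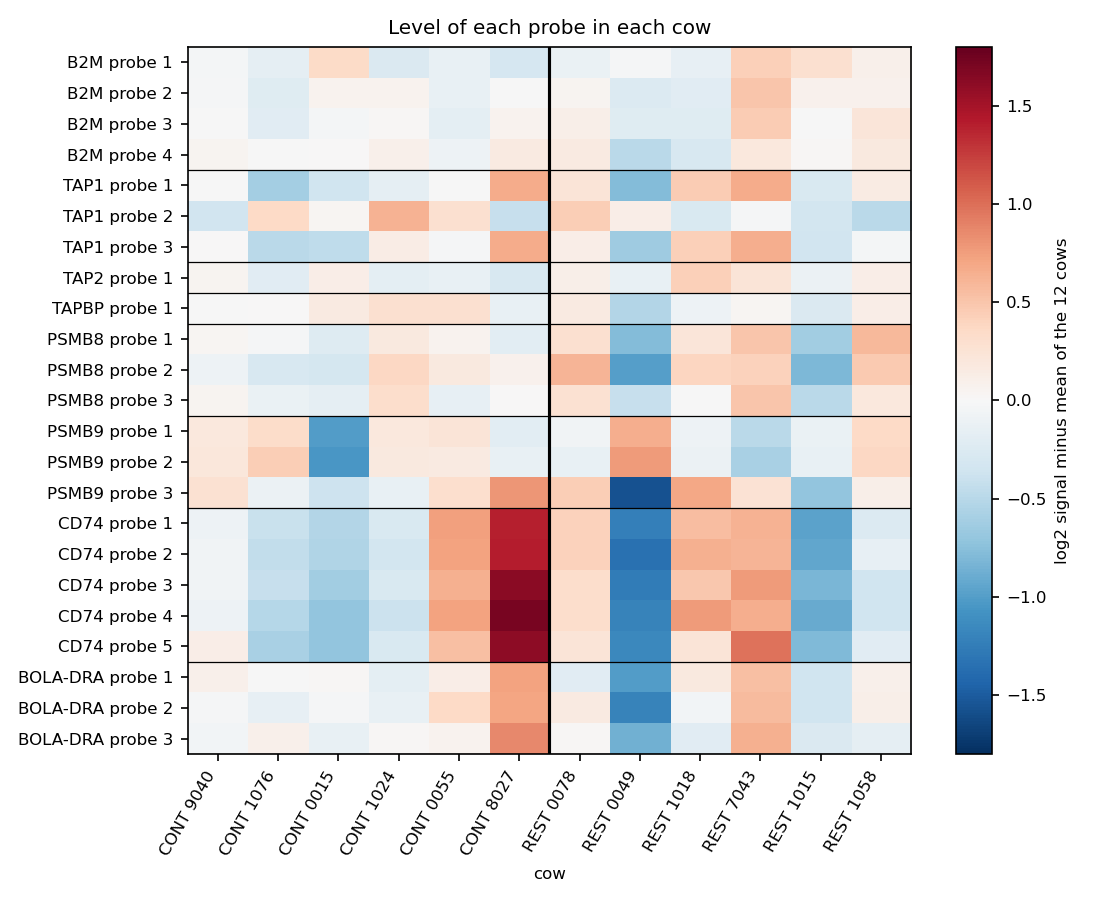
Log2 signal of each of the 23 probes in each cow, centred on the mean of the 12 cows, with CONT on the left of the black line and REST on the right. REST cow 0049 is low in the CD74, BOLA-DRA and PSMB8 probes and in the dimmest PSMB9 probe, and high in the 2 brighter PSMB9 probes.

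Of 6 pairs of matched genes that were compared for their variation across cows, 1 passed, that of CD74 and BOLA-DRA. Their r was 0.83 (permutation p = 0.00063, adjusted p = 0.00378 over 6 pairs) and their rho 0.84 (adjusted p = 0.00792). The relation was r = 0.87 in CONT and 0.84 in REST, and 0.83 with values centred on the slide, while within single slides of 4 cows r was 0.36, 0.96 and 0.93. Without CONT cow 8027 and REST cow 0049, r was 0.63. It was 0.75 with values adjusted for the 75th percentile of the arrays. The subunits of the transporter, TAP1 and TAP2, had r = 0.42 (permutation p = 0.179, rho = 0.43), with r = -0.40 in CONT and 0.86 in REST. TAP1 and PSMB9, which neighbour each other, had r = -0.36 (-0.02 in CONT and -0.78 in REST). The immunoproteasome subunits PSMB8 and PSMB9 had r = -0.10 (0.79 in CONT and -0.44 in REST). B2M had r = -0.09 with TAPBP (0.19 and 0.03) and -0.02 with BOLA-DRA (-0.31 and 0.36). None of these 5 pairs passed the adjusted threshold (permutation p between 0.179 and 0.941), and both B2M pairs changed sign with the scaling of the arrays, as given in the closing section. Leaving out 1 cow took 2 of them past it, TAP1 and PSMB9 without CONT cow 0015 (r = -0.80, adjusted p = 0.00975 by permutation) and TAP1 and TAP2 without CONT cow 8027 (r = 0.76, adjusted p = 0.0207 by permutation). The B2M values above are those of its brightest probe. With TAPBP, the other 3 B2M probes had r = 0.26, 0.30 and 0.60, and with BOLA-DRA 0.47, 0.44 and 0.62.

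Among the 22 other pairs of matched genes, compared after the values were seen, TAP1 of the class I route passed with both class II genes. Its r was 0.86 with CD74 (permutation p = 0.00032, adjusted p = 0.00704 over 22 pairs, rho = 0.85) and 0.80 with BOLA-DRA (permutation p = 0.00108, adjusted p = 0.0119, rho = 0.76). By rho, the pair with BOLA-DRA did not pass (adjusted p = 0.0696). Without REST cows 0049 and 7043 these were 0.81 and 0.64, with values centred on the slide 0.91 and 0.78, and adjusted for the 75th percentile 0.85 and 0.76. Under quantile normalization they were 0.83 and 0.85. Within slides of 4 cows TAP1 had r = 0.77, 0.97 and 0.92 with CD74 and -0.30, 0.98 and 0.78 with BOLA-DRA. These values are those of the brightest TAP1 probe. The TAP1 probe that did not follow it had r = -0.11 with CD74 and -0.33 with BOLA-DRA. None of the remaining pairs passed (lowest adjusted p = 0.0773, TAPBP and PSMB8, r = 0.71). Of the B2M pairs among them, those with TAP1, PSMB8 and CD74 moved from r = -0.03, -0.04 and -0.35 to 0.80, 0.61 and 0.56 under quantile normalization.

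The dimmest PSMB9 probe, unlike the brightest, varied with 4 genes it was tested against. Its r was 0.71 with PSMB8, 0.83 with TAP1, 0.90 with CD74 and 0.85 with BOLA-DRA, and all 4 passed the adjusted threshold (permutation p between 4e-05 and 0.0102, adjusted p at most 0.0102 over 4 relations, rho between 0.50 and 0.92). By rho, the relation with PSMB8 did not pass (adjusted p = 0.104). Without REST cows 0049 and 1015 these values were 0.10, 0.81, 0.87 and 0.54. The brightest PSMB9 probe had r = -0.10, -0.36, -0.25 and -0.48 with the same genes, and 0 of 4 passed. With the genes that were not tested, the dimmest probe had r = -0.33 (B2M), 0.30 (TAP2) and 0.55 (TAPBP). These probes were compared after their values were seen. Which transcript each probe binds is not given in the sources used here.

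The genes were also set against the mean signal of cell type markers, in 30 relations (5 genes by 6 lists) chosen after the values were seen. CD74 followed the mean of KLRK1 and NKG7, receptors and granule proteins of cytotoxic lymphocytes, with r = 0.96 (permutation p = 1e-05, the smallest that 100000 permutations can give, adjusted p = 0.0003, rho = 0.94). It followed the mean of CD83 and CD86, which are found on mature dendritic cells, with r = 0.93 (adjusted p = 0.0006, rho = 0.94). Without CONT cow 8027 and REST cow 0049 these were 0.95 and 0.88, with values centred on the slide 0.95 and 0.92, and with values adjusted for the 75th percentile of the arrays 0.93 and 0.88. Both lists rested on 2 markers each, and XCR1, which marks a subset of conventional dendritic cells, and NCR1, which defines NK cells, did not rise well above background on any of the arrays. With the 6 macrophage and monocyte markers, CD74 had r = -0.03 over all cows, -0.65 in CONT and 0.40 in REST.

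BOLA-DRA had r = 0.86 with the mean of CD83 and CD86 (adjusted p = 0.0018, rho = 0.90) and 0.83 with that of KLRK1 and NKG7 (adjusted p = 0.00377, rho = 0.74), and 0.66 and 0.51 without CONT cow 8027 and REST cow 0049. Within slides of 4 cows these were 0.36, 0.97 and 0.76, and 0.06, 0.98 and 0.85. TAP1 had r = 0.88 with the mean of KLRK1 and NKG7 (adjusted p = 0.0014, rho = 0.86) and 0.86 with that of CD83 and CD86 (adjusted p = 0.00246, rho = 0.83), and 0.86 and 0.82 without REST cows 0049 and 7043. With values centred on the slide these were 0.93 and 0.90. They are values of the brightest TAP1 probe, and the TAP1 probe that did not follow it was not set against the markers. TAP1 also passed with the leukocyte list (r = 0.72) and the neutrophil list (r = 0.69), and BOLA-DRA with the leukocyte list (r = 0.66, adjusted p = 0.0461 by permutation, rho = 0.47, which did not pass). With values adjusted for the 75th percentile these were 0.66, 0.62 and 0.47, and none of the 3 passed (adjusted p between 0.0544 and 0.221).

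PSMB8 passed with 4 of the 6 lists. Its r was 0.84 with the mean of 4 pan-leukocyte genes (adjusted p = 0.00377, rho = 0.70), 0.81 with that of 4 neutrophil genes (adjusted p = 0.00465, rho = 0.81), 0.72 with that of CD83 and CD86 (adjusted p = 0.025, rho = 0.54) and 0.72 with that of 6 macrophage and monocyte genes (adjusted p = 0.025, rho = 0.76). Without REST cows 0049 and 1015 these were 0.54, 0.64, 0.23 and 0.81, and with values centred on the slide 0.83, 0.82, 0.68 and 0.75. Within CONT they were 0.30, 0.35, -0.27 and 0.51, and within REST 0.97, 0.91, 0.95 and 0.81. The relation with CD83 and CD86 did not pass by rho (adjusted p = 0.156) or with values adjusted for the 75th percentile (r = 0.59, adjusted p = 0.106). B2M passed in 0 of 6 relations, with r between -0.33 and 0.32, and 4 of these 6 changed sign under quantile normalization. REST cow 0049 was the lowest of the 12 in the mean of the leukocyte, dendritic cell, neutrophil and NK cell lists, at centred log2 means of -1.55, -1.45, -2.62 and -1.38. The part of cell makeup in these relations was not tested.

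**Figure D4:**
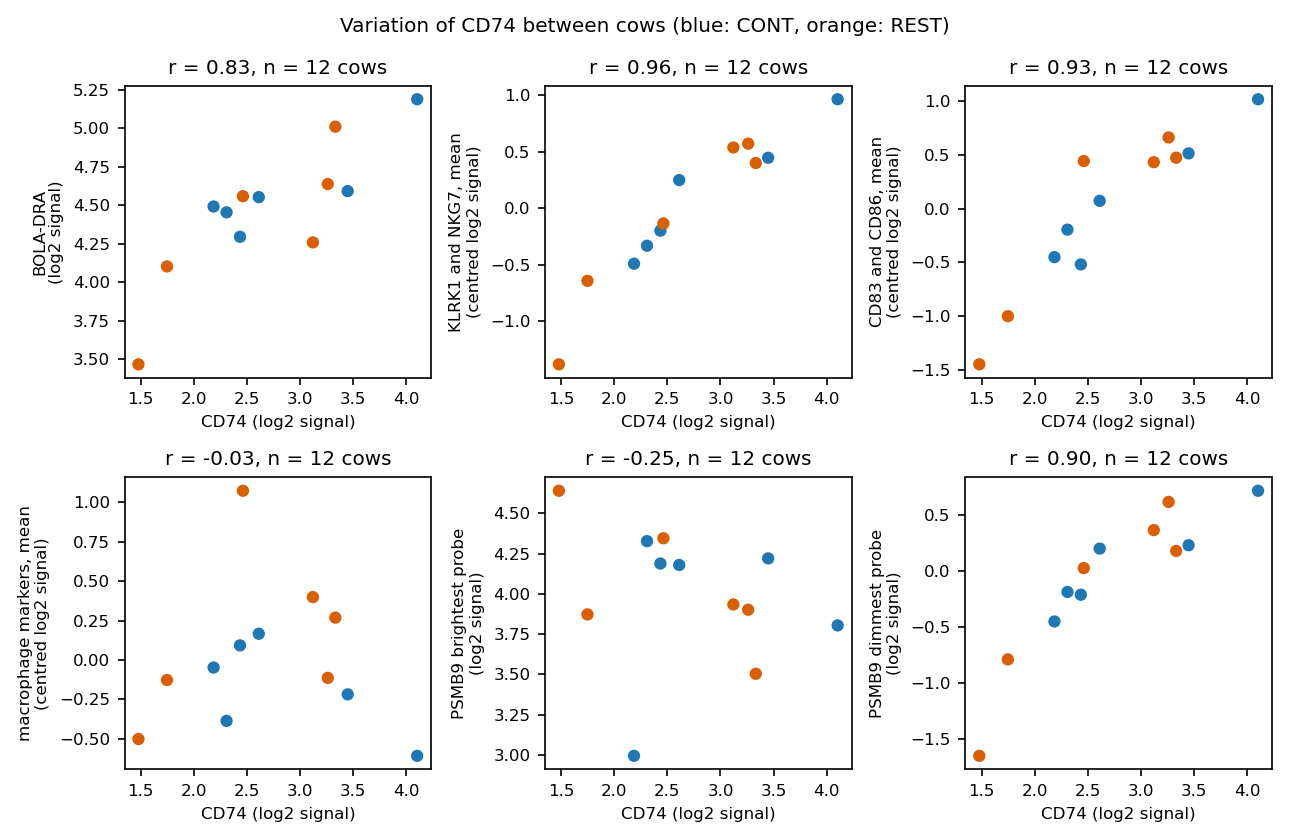
CD74 log2 signal of each cow (horizontal) against BOLA-DRA, the mean of KLRK1 and NKG7, the mean of CD83 and CD86, the mean of 6 macrophage and monocyte markers, and the brightest and dimmest PSMB9 probes (vertical), with CONT in blue and REST in orange. CD74 rose with the first 3 and the dimmest PSMB9 probe (r between 0.83 and 0.96), and had r = -0.03 with the macrophage and monocyte markers and -0.25 with the brightest PSMB9 probe.

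The marker lists were also compared between the diets. The lists for leukocytes, macrophages and monocytes, dendritic cells, neutrophils and NK cells had 0 members with an unadjusted limma p under 0.05, and the B cell and T cell lists had 1 each, MS4A1 (log2 fold change 0.72, above background on no CONT array) and CD3D (0.60). Of 6 fibroblast genes, 5 had a lower mean in REST with a list median of -0.63, and COL1A1, COL1A2 and LUM had an unadjusted p under 0.05, which 2.64% of all named genes had. All 4 endothelium genes had a higher mean in REST with a median of 0.53, and VWF had an unadjusted p under 0.05. All 4 matched milk secretion genes had a higher mean in REST, with a median of 0.33, as had 3 of 5 luminal epithelium genes (median 0.01), 1 of 4 myoepithelium genes (median -0.03) and 2 of 3 adipose tissue genes (median 0.25, from -1.02 for LEP to 1.20 for FABP4), and none of these lists had a gene with an unadjusted p under 0.05. Over all named genes, 43.5% had a higher mean in REST. None of the marker genes passed after adjustment, and their part in the values of the 8 genes was not tested.

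The genes whose signal over the 12 cows was most like that of each route were sought among 8993 named genes, as a description across cows that share arrays and slides. The mean of the 6 class I genes was most like SNX8 (r = 0.95), CARD9 (0.94), PLP2 (0.94) and FTL (0.93), with 1 of the top 5 not reported here. CARD9 encodes a signalling adaptor of myeloid cells and FTL the ferritin light chain. The mean of CD74 and BOLA-DRA was most like LCK (0.97), CD247 (0.96), GPC4 (0.95), CTSW (0.94) and KRT18 (0.94). LCK is a kinase of the T cell receptor, CD247 its ζ chain, CTSW a protease of cytotoxic lymphocytes, and KRT18 a keratin of luminal epithelium. The mean of 6 other T cell genes (CD3D, CD3E, CD3G, CD2, CD8A and CD4) did not pass with either gene, with r = 0.50 for CD74 (adjusted p = 0.164) and 0.40 for BOLA-DRA (adjusted p = 0.282) by permutation. For CD74 it passed under quantile normalization (r = 0.65, adjusted p = 0.0401) and with values adjusted for the 75th percentile (r = 0.72, adjusted p = 0.0238). The means of the 2 routes had r = 0.58 with each other.

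The other genes of the pathway were taken by function, in 7 lists of 70 symbols that include older names of the same gene. Of these, 52 were matched, and 14 had a higher and 38 a lower mean in REST, whereas 43.5% of all named genes had a higher mean. The same share stands beside the counts of direction in the lists below, which were not tested. Of the 52 genes, 0 had an unadjusted limma p under 0.05, against 2.64% of all named genes. Their median log2 fold change was -0.09, compared with -0.03 over all named genes. Under a filter on signals above background, ATF1 passed an unadjusted p of 0.05, and with the mean of all probes of a gene MARCHF8 did so.

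The peptide supply and loading list had 1 of 11 genes with a higher mean in REST and a median of -0.16. The chaperone CALR, which holds class I molecules during loading, had a log2 fold change of 0.07 ± 0.21 (SE). HSPA5 and CANX, chaperones of the endoplasmic reticulum, had -0.30 ± 0.30 (SE) and -0.20 ± 0.15 (SE). The 3 constitutive proteasome subunits that the inducible subunits replace, PSMB5, PSMB6 and PSMB7, differed by -0.03, -0.10 and -0.04, with SEs of 0.17, 0.14 and 0.14. PSMB10, the remaining inducible catalytic subunit, had -0.42 ± 0.26 (SE, limma adjusted p = 1.0). The log2 signals of PSMB10 were 1.13 to 1.74 in CONT and 0.18 to 1.62 in REST, so that the groups overlapped.

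Of 8 matched class II chains, 6 had a lower mean in REST, with a median of -0.18. DSB had a log2 fold change of -0.35 ± 0.30 (SE), BOLA-DQB of -0.37 ± 0.27 (SE), and BOLA-DMB, which helps to load class II molecules, of -0.29 ± 0.25 (SE). Only 4 of the 8 exceeded the background well on every array, and BOLA-DYA did so on none. In the class II peptide supply list, 7 of 10 had a lower mean, with a median of -0.03. The lysosomal protease CTSS, which trims CD74, had -0.33 ± 0.36 (SE), CTSB had -0.24 ± 0.29 (SE) and CTSD had 0.39 ± 0.21 (SE).

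The factors that bind MHC promoters had a lower mean in REST for 6 of 7 genes, with a median of -0.24. NFYC and NFYA, subunits of the CCAAT-binding factor NF-Y, had log2 fold changes of -0.03 ± 0.16 (SE) and -0.24 ± 0.14 (SE), and ATF1 had -0.28 ± 0.14 (SE). In the interferon γ axis, 3 of 7 genes had a higher mean, with a median of -0.05. JAK1 had 0.23 ± 0.34 (SE), IRF1 had -0.18 ± 0.33 (SE) and IRF2 had 0.28 ± 0.22 (SE). IFNG itself was well above background on 2 of 6 CONT and 4 of 6 REST arrays.

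**Figure D5:**
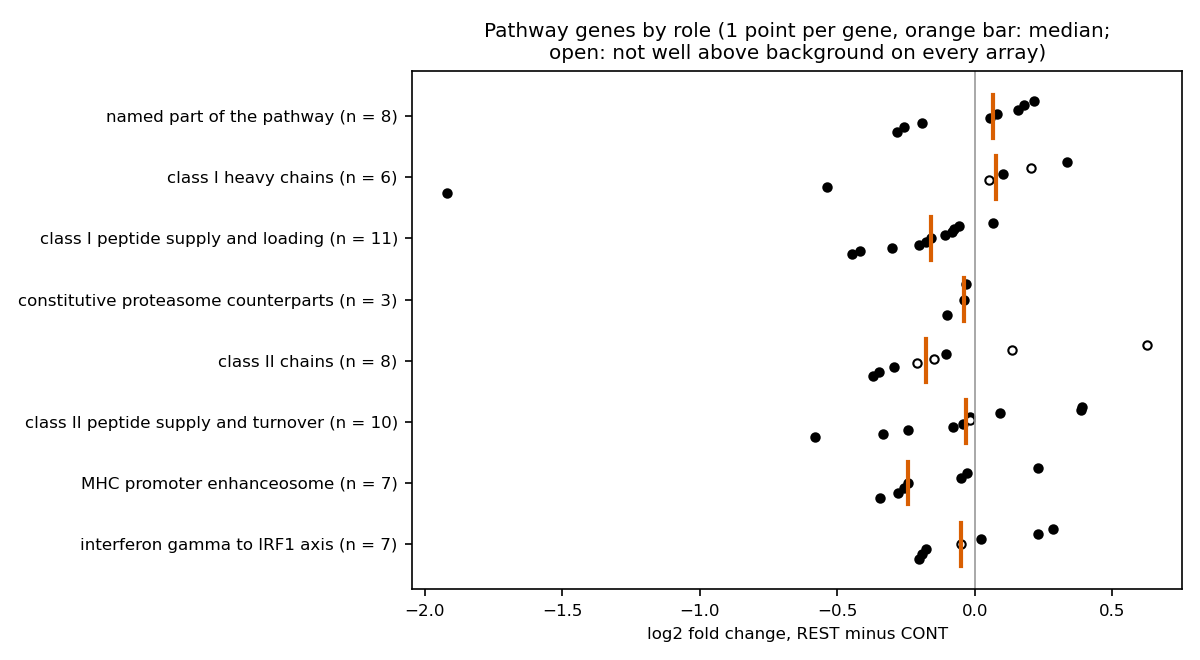
Log2 fold change of REST minus CONT for each matched gene of the pathway, grouped by role, with the median of each list as an orange bar and open points for genes not well above background on every array. Most points lie between -0.5 and 0.5, 10 of the 11 peptide supply genes lie below 0, and the outlying heavy chain at -1.92 is JSP.1.

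The class I heavy chain list matched BOLA, JSP.1 and the class I-like genes MR1, FCGRT, CD1E and CD1D. Of these 6, 4 had a higher mean in REST, with a median of 0.08. MR1 and CD1D were not well above background on every array. BOLA had a log2 fold change of 0.10 ± 0.19 (SE), from 6 CONT and 5 REST cows because the spot of REST cow 0078 was an outlier. It was 0.03 with that spot kept, -0.06 without REST cow 7043 and -0.20 under quantile normalization. FCGRT, the receptor that carries immunoglobulin G and pairs with β2-microglobulin, had 0.34 ± 0.29 (SE), and 0.55 ± 0.24 (SE) without CONT cow 8027. JSP.1, a bovine class I heavy chain, had the lowest log2 fold change of the pathway, -1.92 ± 1.64 (SE), and it came from 1 cow. Its log2 signal was 7.94 at the lowest, 8.13 at the median and 8.45 at the highest in CONT, and -2.86, 7.96 and 8.89 in REST. REST cow 0049, at -2.86, lay 10.13 below the lowest of the 11 other cows, with an intensity of 53.1 against 78100 to 384600, and was still well above background by the scanner's criterion. A further probe of JSP.1 was also lowest in this cow, at -6.29 against 1.18 to 4.35 in the others, and not well above background there, whereas the remaining probe was highest in it, at 2.25. Without REST cow 0049 the log2 fold changes of these 3 probes were -0.09 ± 0.26 (SE), -0.15 ± 0.53 (SE) and 0.08 ± 0.52 (SE). The brightest B2M and BOLA probes of the same cow lay within the range of the others, at 8.25 and 8.52. Of the other 3 B2M probes, 2 were lowest in this cow, at 6.82 and 6.14, while the next cows had 6.85 and 6.35. Class I heavy chain genes are near-identical copies that differ between animals, so that the gene measured by each of these probes is uncertain.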

How the data were processed

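The authors amplified the RNA of each cow, labeled it with Cy3, hybridized it to one-color Agilent bovine arrays and read the images with Feature Extraction 11.0.1.1. The deposited values are spot intensities after the background correction of that software, without normalization between arrays, and the deposited matrix holds the same values. Groups were taken from the labels, and all 12 arrays were used. The number of arrays limits the precision.

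Control spots were left out and outlier spots treated as missing. The log2 intensity of each spot, less the 75th percentile of its array, was averaged by probe. Probes were named by RefSeq accession, and a gene is represented by its probe of highest mean signal. REST and CONT were compared with limma 3.58.1 (R 4.3.3, two-sided), over all 43653 probes, with Westfall-Young adjustment (100 splits of the cows, lowest possible p 0.01) and Benjamini-Hochberg adjustment. Exact permutation tests used all splits of the 12 cows. Correlations used 100000 permutations, two-sided, with Benjamini-Hochberg adjustment in each family. The procedure was tested on simulated data. Figures were drawn with matplotlib 3.10.9.

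All genes of the list were named. From other lists of the pathway, genes with an unadjusted p under 0.05 and the 3 with the highest signal were named. PSMB10, BOLA-DYA, MARCHF8, IFNG, MR1, CD1E, CD1D and the single markers were named after their values were seen. The genes and lists were chosen with earlier results of these data known. Alternatives were quantile normalization, normexp background correction with offset 50 (on median signals), the deposited matrix, a filter on signals above background, outlier spots kept, the mean of all probes of a gene, an eBayes intensity trend, a block for slide and leaving out each cow. Relations with markers, with array brightness and between single probes, and the adjustment for the 75th percentile, were added after seeing the data. Relations with the B cell and interferon γ lists are not reported here. The labels do not state more than 1 sample per cow. The assembly of the RefSeq table is not that of the array, so that no positions are given, and no sequences were used here.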

Additional observations from a re-analysis of the deposited data

Results flagged for a closer look

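Of the 46 groups of 6 cows (23 probes in each diet), 2 held a cow far from the 5 others by Dixon's criterion, and chance would give 2.3. Both were probes of BOLA-DRA in CONT, and both times the cow was 8027. In the brightest probe its log2 signal was 5.19, above 4.59 in the next cow and 4.30 in the lowest. In the dimmest probe it was 1.59, above 0.82 and 0.59. The same cow had the highest CD74 signal, 4.10, and the highest 75th percentile intensity, 1184. The part of array brightness in these values was not tested.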

How the results depend on the processing

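No paired analysis was possible because the labels give every cow the same replicate text, and numbers given in accession order pair no samples. No gene of the list had an unadjusted limma p under 0.05 in any alternative or without any cow, and probes past the Westfall-Young or Benjamini-Hochberg threshold were 0 throughout, of 43653 or, with the filter on signals above background, of 26678, while those with an unadjusted p under 0.05 were 377 (normexp) to 1739 (without REST cow 1058). Without single cows, the log2 fold changes were 0.11 to 0.27 for B2M, 0.04 to 0.33 for TAP1, 0.15 to 0.26 for TAP2, -0.24 to -0.11 for TAPBP, -0.056 to 0.22 for PSMB8, -0.11 to 0.19 for PSMB9, -0.43 to -0.03 for CD74 and -0.39 to -0.08 for BOLA-DRA. The median of the 8 genes was -0.05 to 0.13 and genes with a higher mean in REST were 4 to 5. The mean over all probes turned PSMB9 to -0.037 and the median of the 8 genes to -0.01, and lowered B2M to 0.08, TAP1 to 0.01 and PSMB8 to 0.03. Quantile normalization lowered B2M to 0.06. Other pathway genes with an unadjusted p under 0.05 were 1 instead of 0 with the filter on signals above background and with the intensity trend (ATF1), with the mean over all probes (MARCHF8), and 0 to 1 without single cows (1 without CONT cow 9040, CTSD, CONT cow 8027, FCGRT, or REST cow 0078, CREBBP).

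Correlated pairs were 1 to 2 without single cows. The mean over all probes turned r to 0.24 for TAP1 and PSMB9, 0.35 for PSMB8 and PSMB9, 0.30 for B2M and TAPBP, and 0.49 for B2M and BOLA-DRA. For the B2M pairs with TAPBP and BOLA-DRA, r was 0.44 and 0.63 under quantile normalization, 0.52 and 0.064 centred on the slide, 0.09 and 0.11 centred on diet, and 0.42 and 0.55 adjusted for the 75th percentile, and normexp gave 0.10 for the latter. Without single cows, r was -0.33 to 0.26 for PSMB8 and PSMB9, -0.22 to 0.051 for B2M and TAPBP, and -0.32 to 0.23 for B2M and BOLA-DRA. Quantile normalization turned B2M to r = 0.64 with the leukocyte, 0.68 with the dendritic cell, 0.73 with the neutrophil and 0.73 with the NK cell list, all of which passed (adjusted p between 0.0192 and 0.0409). Adjustment for the 75th percentile gave 0.37, 0.35, 0.45 and 0.27, none of which passed. It took 4 relations past the threshold below it (TAP1 with the leukocyte and neutrophil lists, PSMB8 with the dendritic cell list, BOLA-DRA with the leukocyte list) and brought CD74 with the T cell list past it (0.72). Beside the 4 B2M relations, quantile normalization brought 3 past it, PSMB8 with the NK cell list (0.73) and CD74 with the leukocyte (0.62) and T cell (0.65) lists. The causes were not tested.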
